A study of Rattus norvegicus with 6 samples.

Results

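The Ras and Raf genes measured here were Hras, Nras, Rras, Rras2, Mras and Araf, read by 10 probes among the 30367 probes of a rat gene expression array. They are 6 of the 15154 genes that could be named on it. The members were chosen by symbol from a list of 7 genes, by a rule that uses no measured value, and no probe was matched to Braf, the remaining gene of the list. Hras, Nras, Rras and Mras each had 1 probe, while Rras2 had 2 and Araf 4. Every probe matched to these symbols is reported. Matching used RefSeq accessions only, and 3408 probes with such an accession matched no symbol. Whether a Braf probe is among them was not tested.

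Ras proteins are small GTPases held at membranes by lipid anchors. They are switched on when an exchange factor loads them with GTP at an activated receptor, and off when a GTPase-activating protein makes them hydrolyse it. Loaded with GTP, they bring Raf kinases to the membrane, which phosphorylate MEK, which in turn phosphorylates ERK. Ras also feeds phosphoinositide 3-kinase and the exchange factors of Ral. In the ovary this cascade carries signals from receptors such as Kit on oocytes, and in immune cells from receptors of growth factors and cytokines.

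The groups were ovaries of female Wistar pups collected on postnatal day (PND) 7. Pups in 1 group had received 0.05 mg/kg of lipopolysaccharide (LPS) from Salmonella enterica by intraperitoneal injection on PNDs 3 and 5, and pups in the other had received the same volume of saline on those days. LPS comes from the cell surface of Gram-negative bacteria and is sensed through Toll-like receptor 4, and the comparison asks how the ovary had responded to it by PND 7. Each treatment had 3 arrays of labeled ovarian RNA. The study's methods describe ovaries of several animals from a pair of litters for each treatment, and which animals and litters lie behind each array was not used here, so the p-values measure the spread between arrays, which may be partly shared within litters. Whole ovaries hold many cell types, so fewer cells of a type and less RNA per cell cannot be told apart.

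The arrays carried ovarian RNA throughout, with all 9 measured oocyte markers and 7 of 8 granulosa cell markers well above background on all 6 arrays. Summed oocyte markers, on the scale below, were 4.53, 4.34 and 5.09 on saline and 4.10, 5.57 and 5.28 on LPS replicates 1, 2 and 3. Granulosa sums were 5.30, 5.41 and 6.08 on saline and 4.48, 6.39 and 5.88 on LPS replicates 1, 2 and 3. All 9 oocyte markers were fitted higher with LPS, with a median log2 difference of 0.43. Of the 8 granulosa markers, 5 were fitted higher and 3 lower. Saline replicates 2 and 3 stood apart from the other 4 arrays by transcripts of the adrenal gland. The summed level of 8 adrenal cortex markers, as log2 relative to the 75th percentile of each array, was 7.92 and 8.32 on these arrays, and ranged from 0.52 to 0.91 on the others. For 8 adrenal medulla markers the sums were 6.56 and 5.85 against 1.80 to 2.67. Macrophage marker sums lay close together, from 3.09 to 3.41 in saline and, slightly above these, from 3.47 to 3.49 in LPS-treated ovaries. Of the 12 macrophage markers, 9 were fitted higher and 3 lower with LPS. The treatments did not overlap for 3 with LPS higher and 0 with LPS lower, beside 23.4% of all probes in either direction. Because of the adrenal transcripts, results are also given without saline replicates 2 and 3. They are values with no p, since 1 saline array then remains and the LPS arrays alone would set the spread. The part of adrenal RNA in the Ras and Raf values was not tested further.

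**Figure D1:**
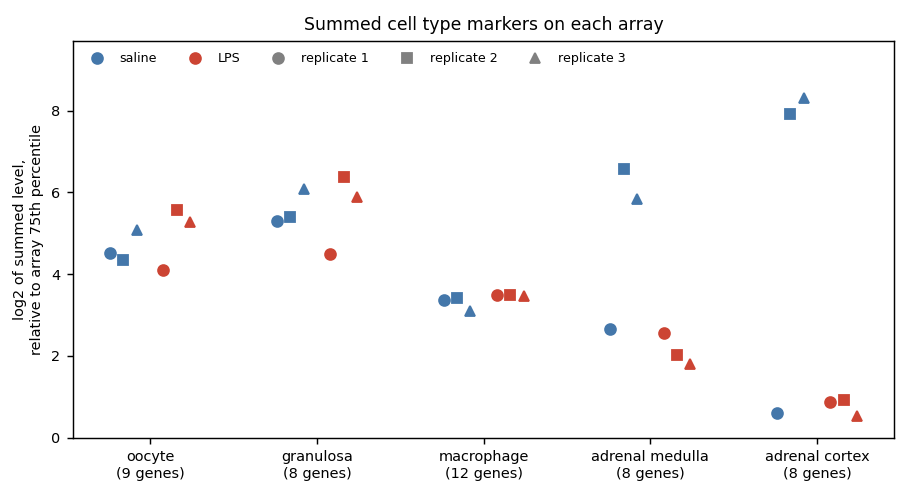
Summed levels of cell type markers on each array, on the y axis as log2 relative to the array's 75th percentile, for marker lists along the x axis with blue points for saline and red points for LPS and a symbol for each replicate number. Saline replicates 2 and 3 lie at 7.92 and 8.32 for adrenal cortex markers, above the 0.52 to 0.91 of the other 4 arrays. Oocyte and granulosa sums overlap between treatments and are lowest on LPS replicate 1, and macrophage sums lie close together.

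Sequences were printed for Rras2, the member whose probes gave the highest fitted differences and the one the study also assayed by quantitative PCR, and for Araf, whose brightest probe was the member probe that read lower on every LPS array. The PCR primers of Rras2, designed by the authors and 20 bases each, were as follows.
Rras2 forward primer: gtttggagccatgagagagc
Rras2 reverse primer: tcatgggaaactcatcacga

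The 250 bases before the RefSeq start of these genes on assembly GRCr8 lie at chr1:177737552-177737801 for Rras2 and at chrX:3792612-3792861 for Araf, both on the minus strand and printed 5′ to 3′ on that strand, with capitals marking the GC box letters GGGCGG or, on the other strand, CCGCCC.
Rras2 promoter: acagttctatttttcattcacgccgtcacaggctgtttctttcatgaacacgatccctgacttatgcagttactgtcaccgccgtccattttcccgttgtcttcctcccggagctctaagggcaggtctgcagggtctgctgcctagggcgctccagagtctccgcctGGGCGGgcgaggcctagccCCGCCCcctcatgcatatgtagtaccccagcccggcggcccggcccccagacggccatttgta
Araf promoter: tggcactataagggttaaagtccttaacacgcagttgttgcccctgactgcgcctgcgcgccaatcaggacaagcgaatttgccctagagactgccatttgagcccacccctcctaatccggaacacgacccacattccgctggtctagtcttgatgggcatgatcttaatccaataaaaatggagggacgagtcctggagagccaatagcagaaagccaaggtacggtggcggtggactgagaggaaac

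The Rras2 window held 2 such matches and the Araf window 0. Over the 8 windows of the 7 listed genes, Mras having a pair of overlapping ones, 5 held a match and 3 did not, against 30.47% of the 33465 rat promoter windows of this length. Hras, with 4 matches, had the highest GC content at 65.6%, and Araf the lowest at 52.8%, all above the median of 51.2% over all windows. None of the 8 windows held the letters TATAAA on either strand, which 12.93% of all windows did. These matches are descriptions of the letters only.

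None of the Ras and Raf probes passed the criterion of a 2-fold difference with an unadjusted p under 0.05, by limma, between LPS- and saline-treated ovaries. Rras2 had the highest fitted differences, positive on both of its probes, and Mras the lowest, while Nras and all Araf probes were fitted lower and Rras 0.09 higher with LPS. Hras was too dim for a direction. The treatments overlapped on every member probe except the dimmer Rras2 probe and the brightest Araf probe. In all 30367 probes, 513 passed this criterion, which is 1.69%. In limma, the unadjusted p was under 0.05 for 0 of the member probes, beside 16.5% of all probes, and 0 passed after Benjamini-Hochberg adjustment, as did 0 (0%) of all probes, whose smallest adjusted p in limma was 0.271. All probes here include 8023 that were well above background on no array, and the share of 16.5% was not computed without them. With 3 arrays against 3, the smallest p that the exact permutation test can give is 0.1.

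The fitted log2 differences of the 10 probes, LPS minus saline, ran from -0.55 to 0.78 with a median of -0.08, and the median over all probes was -0.04. In 8 of the 10 probes the signal was well above background on all 6 arrays, and 2 of these 8 were fitted higher with LPS, where 53.6% of all such probes were. The median of the 8 was -0.13, beside a median of 0.02 and an interquartile range from -0.13 to 0.18 for all 17585 such probes. LPS and saline arrays did not overlap for 2 of the 10 probes, 1 in each direction, beside 23.4% of all probes measured on all arrays. Of the 8 brighter probes 1 did not overlap, beside 11.4% of all such probes. These shares were not tested.

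**Figure D2:**
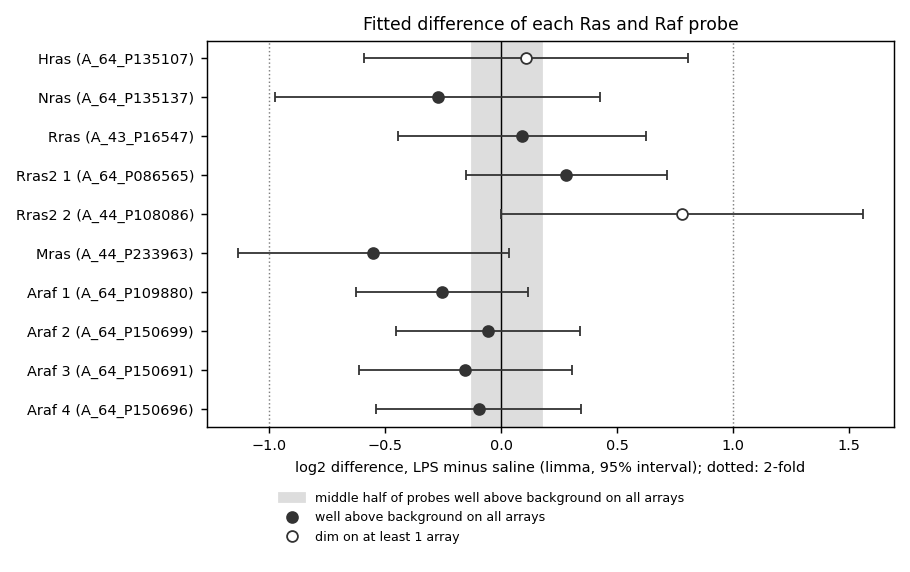
Fitted log2 difference of each Ras and Raf probe, LPS minus saline, on the x axis, with the 95% interval from limma as bars and the probes along the y axis. Filled points are probes well above background on all arrays, and the grey band spans the interquartile range of all such probes, from -0.13 to 0.18. The interval of every probe includes 0, and no fitted value reaches the dotted lines of a 2-fold difference.

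Rras2, also called TC21, is a relative of the classical Ras proteins that activates phosphoinositide 3-kinase and Raf. Its brighter probe, A_64_P086565, read 1.07, 1.50 and 1.40 on LPS replicates 1, 2 and 3, and 1.13, 0.98 and 1.03 on saline replicates 1, 2 and 3, all as log2 signal relative to the array's 75th percentile, a scale on which 0 is the 75th percentile of the probes of an array. LPS replicates 2 and 3 lay above all saline arrays, and LPS replicate 1 lay between them. The means were 1.33 ± 0.23 and 1.04 ± 0.08 (SD, n = 3 each), a log2 difference of 0.28 with a standard error of 0.18 and a 95% interval from -0.15 to 0.71, or 1.21-fold, with an adjusted p of 0.563 in limma and an exact permutation p of 0.2. Slide rows were inferred from the position code in each scan's name, and no sample label gives them. By that code LPS replicates 2 and 3 lay in 1 row and the other 4 arrays in the other. Within the shared row LPS replicate 1 differed from the mean of the saline arrays by 0.03. Treatment and slide row can thus be separated by 1 LPS array only, for this probe and for every other probe and gene reported here. The oocyte marker sum was also lower on LPS replicate 1, at 4.10, than on LPS replicates 2 and 3, at 5.57 and 5.28. The part of cell content in the Rras2 values was not tested. Without saline replicates 2 and 3 the difference of this probe was 0.20.

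The other Rras2 probe, A_44_P108086, was present as 1 spot and was dim, with saline replicate 2 not well above background. It read -2.98, -2.99 and -2.79 on LPS replicates 1, 2 and 3 and -3.19, -4.42 and -3.49 on saline replicates 1, 2 and 3. Every LPS array was above every saline array, and saline replicate 2, the array not well above background, was the lowest. The means of -2.92 ± 0.11 and -3.70 ± 0.64 (SD, n = 3 each) differed by 0.78 with a standard error of 0.33, a 1.72-fold difference, with an unadjusted p of 0.051 and an adjusted p of 0.303 in limma and an exact permutation p of 0.1. The difference was 0.42 without saline replicate 2 and 0.27 without saline replicates 2 and 3. It was 1.03 without saline replicate 1, where it passed the 2-fold criterion at an unadjusted p of 0.0168 and an adjusted p of 0.191 in limma. The saline arrays then left, replicates 2 and 3, were those with adrenal transcripts. On all arrays the difference was 0.22 with the normexp background correction and 0.10 with no background correction. With the replicate number as a block, its unadjusted p was 0.0403 and its adjusted p 0.223 in limma, below 2-fold as before. A comparison of the Rras2 probes, chosen after their values were seen, gave the dim probe minus the bright one as -4.25 ± 0.22 in LPS-treated and -4.75 ± 0.57 in saline-treated ovaries (SD, n = 3 each), a difference of 0.50 with overlapping groups and an exact permutation p of 0.2.

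Mras, or muscle RAS, forms a phosphatase complex with Shoc2 and protein phosphatase 1 that relieves an inhibitory phosphorylation on Raf. It had the largest absolute difference among the brighter member probes. Probe A_44_P233963 read -0.83, -0.08 and -0.48 on LPS replicates 1, 2 and 3, and 0.32, 0.06 and -0.12 on saline replicates 1, 2 and 3. The groups overlapped in a single pair of arrays, since LPS replicate 2 lay above saline replicate 3. The means of -0.46 ± 0.38 and 0.09 ± 0.22 (SD, n = 3 each) differed by -0.55 with a standard error of 0.24 and a 95% interval from -1.14 to 0.03, so that saline was 1.47-fold above LPS, with an unadjusted p of 0.061 and an adjusted p of 0.324 in limma and an exact permutation p of 0.2. Mras was fitted lower with LPS under all 18 alternatives, from -0.92 with the slide row as a block to -0.18 with no scaling between arrays. With the slide row as a block, the difference is that of LPS replicate 1 alone from the saline arrays of its row. The Mras difference was -0.37 without LPS replicate 1 and -0.78 without saline replicates 2 and 3. Over the alternatives that kept more than 1 array in each treatment, its lowest adjusted p in limma was 0.307. The unadjusted p in limma was under the threshold in 6 of these alternatives, at 0.0389 with normexp, 0.0303 with no background correction, 0.0468 over bright probes alone, 0.0451 with a trended robust fit, 0.0202 with the slide row as a block and 0.0278 without LPS replicate 2.

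Nras, a classical Ras protein found at the plasma membrane and the Golgi, was read by probe A_64_P135137 at 0.37, 0.08 and 0.23 on LPS replicates 1, 2 and 3 and at 1.13, 0.27 and 0.11 on saline replicates 1, 2 and 3. Saline replicate 1 stood above the other 5 arrays, which overlapped. The difference was -0.28 (means 0.23 ± 0.15 and 0.50 ± 0.55, SD, n = 3 each) with a standard error of 0.29 and a 95% interval from -0.98 to 0.43, and the adjusted p was 0.807 in limma, with an exact permutation p of 0.6. That value rested on saline replicate 1, since it was 0.04 without that array and -0.90 against that array alone.

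Hras, the other classical Ras protein measured, was near the limit of the array. Its probe A_64_P135107 was well above background on LPS replicate 1 and on none of the other 5 arrays, where it ranged from -5.46 to -4.42. Both spots of this probe differed by up to 0.84 on the log2 scale on an array. The means were -4.76 ± 0.19 with LPS and -4.87 ± 0.53 with saline (SD, n = 3 each) and the groups overlapped, so no fold change is given for Hras.

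Rras, or R-Ras, regulates integrin activity and cell adhesion. Probe A_43_P16547 read 1.66, 1.46 and 1.60 on LPS replicates 1, 2 and 3 and 1.81, 1.55 and 1.096 on saline replicates 1, 2 and 3. The saline arrays spanned the LPS arrays on both sides. The means of 1.57 ± 0.10 and 1.49 ± 0.36 (SD, n = 3 each) differed by 0.09 with a standard error of 0.22 and a 95% interval from -0.45 to 0.62, an adjusted p of 0.960 in limma and an exact permutation p of 0.8. It was -0.23 without saline replicates 2 and 3 and -0.11 without saline replicate 3, so that no direction can be read from it.

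Araf, the X-linked member of the Raf kinases, phosphorylates MEK with a lower basal activity than Braf. Its brightest probe, A_64_P109880, read 1.01, 0.99 and 1.01 on LPS replicates 1, 2 and 3, and 1.30, 1.33 and 1.14 on saline replicates 1, 2 and 3. The LPS arrays were nearly equal and all lay below the saline arrays. The means of 1.00 ± 0.01 and 1.26 ± 0.10 (SD, n = 3 each) differed by -0.26 with a standard error of 0.15 and a 95% interval from -0.62 to 0.11, saline being 1.19-fold above LPS, with an unadjusted p of 0.145 and an adjusted p of 0.518 in limma and an exact permutation p of 0.1. The methods' t-test, here the form that analysis of variance takes for a pair of groups, uses the spread of this probe alone and gave an unadjusted p of 0.0137 and an adjusted p of 0.374. The difference stayed between -0.31 and -0.22 with any 1 array left out, and was -0.30 without saline replicates 2 and 3. With no scaling between arrays it was 0.12, and the median of all probes moved from -0.04 to 0.34. That shift is common to all probes, so the probe's place below the median could not change.

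The other 3 Araf probes overlapped between the treatments. Probe A_64_P150699 read 0.15, 0.27 and 0.37 with LPS and 0.21, 0.29 and 0.47 with saline on replicates 1, 2 and 3, a difference of -0.06 with a standard error of 0.17. For A_64_P150696 the values were -0.80, -0.56 and -0.35 with LPS and -0.54, -0.54 and -0.34 with saline, a difference of -0.10 with a standard error of 0.19. Probe A_64_P150691, assigned through another RefSeq accession of Araf than the other 3, read -0.67, -0.58 and -0.47 with LPS and -0.67, -0.16 and -0.43 with saline, a difference of -0.16 with a standard error of 0.19. All 4 Araf probes were thus fitted lower with LPS, 3 of them by no more than their standard error, and all 4 were above 0 but below the median of all probes when arrays were not scaled. Without saline replicates 2 and 3, A_64_P150699 and A_64_P150691 turned to 0.05 and 0.10 and A_64_P150696 was -0.03. The treatment difference was compared between the Araf probes in all 6 pairs, and no pair gave an exact permutation p below 0.3 or a value adjusted over the 6 below 1. The widest difference between the probes' treatment differences was -0.20, for A_64_P109880 minus A_64_P150699.

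**Figure D3:**
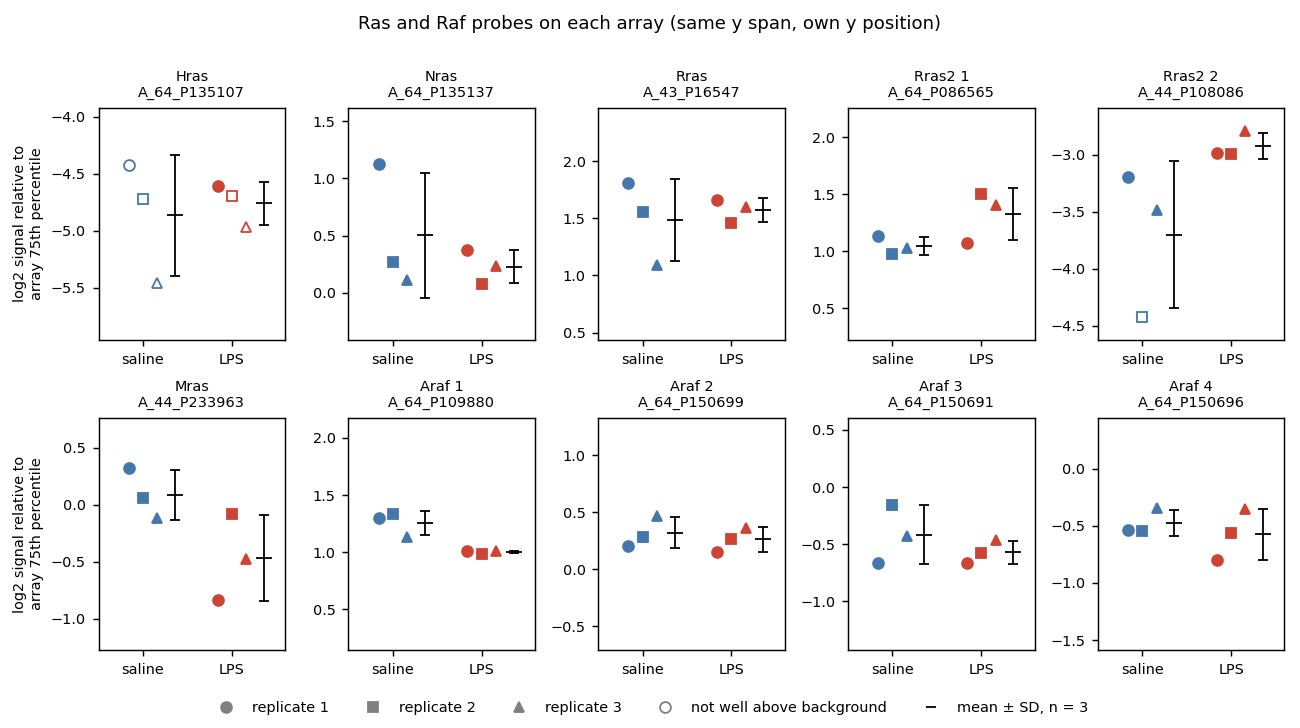
Values of each Ras and Raf probe on each array, on the y axis as log2 signal relative to the array's 75th percentile, with saline in blue and LPS in red along the x axis, a symbol for each replicate number, open symbols for arrays not well above background and bars for mean ± SD (n = 3). All panels have the same y span. The dim Rras2 probe and the brightest Araf probe are the 2 of 10 whose treatments do not overlap, in opposite directions. With no scaling between arrays the Araf probe was at 0.12, below the median of 0.34 over all probes.

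Scaling between arrays moved all differences together. Unscaled, the median over all probes was 0.34, against -0.04 with scaling, and 9 of the 10 member probes were then fitted above 0, Mras being the exception. Relative to the median of all probes, 4 of the 10 lay above it both with and without scaling, a count that a shift common to all probes cannot change. Without scaling, the dim Rras2 probe passed the 2-fold criterion at 1.15, with an adjusted p of 0.679 in limma, and the brighter one stood at 0.66. Both Rras2 probes were positive under every alternative in which they were tested, from 0.03 to 0.66 for the brighter and from 0.10 to 1.15 for the dim one. Over the alternatives that kept more than 1 array in each treatment, the lowest adjusted p in limma for any member was 0.191.

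**Figure D4:**
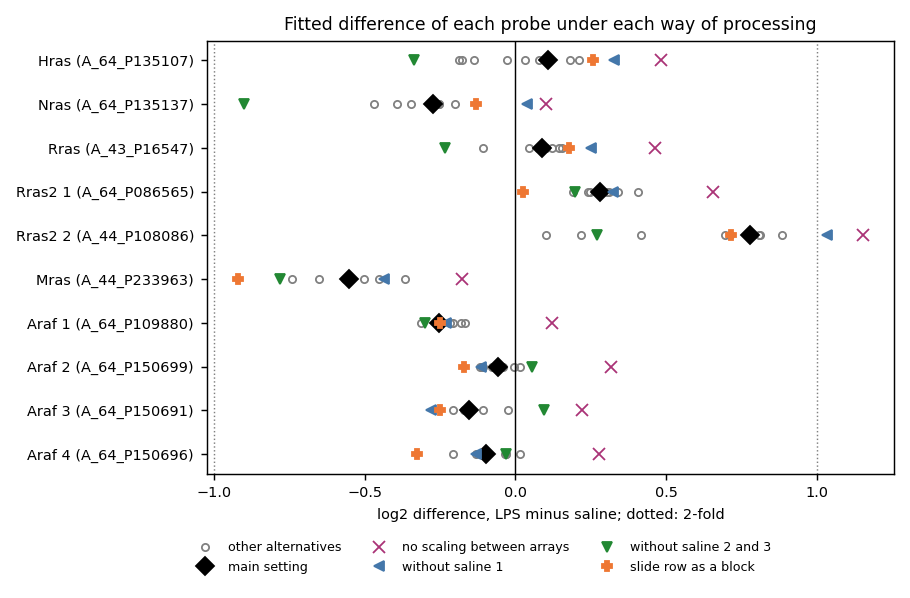
Fitted log2 difference of each Ras and Raf probe, LPS minus saline, on the x axis, under the main setting (black diamond) and each alternative (other symbols), with the probes along the y axis and dotted lines at a 2-fold difference. Both Rras2 probes stay above 0 and Mras below 0 under every alternative shown, the other genes take both signs, and with no scaling (crosses) 9 of 10 probes are above 0.

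The genes whose probes followed Rras2 most closely over the 6 arrays, among 9679 genes searched, were Gstp1 (Pearson's r 0.995), a glutathione transferase, Polr2m (0.990), Bod1 (0.987), Gpat2 (0.983) and Cdk8 (0.981), a kinase of the Mediator complex. For Mras they were Blvrb (0.981), which reduces biliverdin, Hspa5 (0.979) and Serpinh1 (0.965), chaperones of the endoplasmic reticulum, Clcn1 (0.974) and Ppm1k (0.968). With 6 arrays and that many genes searched, these are descriptions of likeness only. Their own fitted differences were between 0.20 and 0.84 for those like Rras2 and between -0.25 and -0.20 for those like Mras.

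The other genes of the Ras pathway were taken from 7 lists of 80 genes by role, of which 68 had a probe and 49 were well above background on all arrays, with 1 probe used for each gene. Only 1 of the 68 passed the 2-fold criterion, Crk, higher with LPS, and 0 passed it in the other direction, beside the 1.69% of all probes. The unadjusted p in limma was under the threshold for 5 of 68 genes, beside 16.5% of all probes, and 0 passed after adjustment. Of the 68 genes, 6 were well above background on no array. The median fitted difference of the 68 was 0.03, and 35 genes were fitted higher and 33 lower. Of the 49 brighter genes, the treatments did not overlap for 4 with LPS higher and 3 with LPS lower, beside 11.4% in either direction for all such probes.

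At the level of exchange factors and adaptors, which couple receptors to Ras, Sos1 differed by -0.02 and the adaptor Grb2 by -0.04. Sos2 read lower on all LPS arrays, with a difference of -0.23, a standard error of 0.16 and an adjusted p of 0.613 in limma. Ptpn11, the phosphatase that promotes Ras loading, differed by 0.66 with a standard error of 0.41, on arrays from -4.30 to -2.72 in saline and from -2.85 to -2.49 in LPS-treated ovaries. Saline replicate 2 was the lowest, and the difference was 0.18 without it and 0.32 without saline replicates 2 and 3. Crk, an adaptor that brings exchange factors to phosphorylated docking proteins, named after its values were seen, read -3.95, -5.14 and -4.07 on LPS and -6.20, -5.73 and -5.30 on saline replicates 1, 2 and 3. It was well above background on 2 LPS arrays and on 0 saline arrays, so no fold change is given for it. Its unadjusted p was 0.0107 and its adjusted p 0.271 in limma. With normexp and with no background correction it did not pass the 2-fold criterion. Of the 14 genes measured, 5 were fitted higher and 9 lower. Rasgrp1 and Rasgrf1, also named after their values were seen, had an unadjusted p in limma under the threshold but were well above background on 0 arrays.

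Among the GTPase-activating proteins, which switch Ras off, Rasa2 read -2.91, -2.69 and -2.63 on LPS replicates 1, 2 and 3 and -3.25, -3.11 and -3.46 on saline replicates 1, 2 and 3, so that the LPS arrays were the higher 3. The difference was 0.53 with a standard error of 0.18, an unadjusted p of 0.0229 and an adjusted p of 0.271 in limma, and it was 0.51 without saline replicates 2 and 3. Rasa1 differed by 0.02, and Nf1 (neurofibromin) and Rasa3 were well above background on 0 saline arrays. Over this list of 8 measured genes, 5 were fitted higher and 3 lower.

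Of the 9 enzymes that attach, trim and traffic the lipid anchor of Ras, 6 were fitted higher and 3 lower, with a median of 0.07. The farnesyltransferase subunits Fnta and Fntb differed by 0.09 and -0.05, the protease Rce1 by 0.07 and the methyltransferase Icmt by -0.04, each by less than its standard error. Lypla1, a depalmitoylating thioesterase named after its values were seen, did not overlap between treatments, with a difference of 0.38, a standard error of 0.20 and an adjusted p of 0.440 in limma. Pggt1b, a prenyltransferase subunit also named after its values were seen, was well above background on 2 LPS arrays and on 0 saline arrays.

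Of the scaffolds and regulators of Raf, Pebp1, the Raf kinase inhibitor protein, read 4.98, 5.22 and 5.02 on LPS replicates 1, 2 and 3 and 5.36, 5.33 and 5.42 on saline replicates 1, 2 and 3. All LPS arrays lay below all saline arrays, and the difference was -0.30 with a standard error of 0.16 and an adjusted p of 0.434 in limma, nearly the same as the -0.29 without saline replicates 2 and 3. Cdc37, the co-chaperone that loads Raf onto Hsp90, differed by 0.06, and the scaffold Ksr1 was without a matched probe. Shoc2, the partner of Mras, was well above background on 0 arrays. Ppp1cb, a catalytic subunit of the same phosphatase complex named after its values were seen, was higher on all LPS arrays by 0.26 with a standard error of 0.16 and an adjusted p of 0.548 in limma.

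Other effectors of Ras had a median of 0.23, with 7 of 9 measured genes fitted higher and 0 passing the 2-fold criterion, but without saline replicates 2 and 3 the median was -0.01 and 4 of 9 were fitted higher. Ralgds, an exchange factor for Ral, differed by 0.23 with a standard error of 0.29, and by -0.29 without those arrays, and the GTPases Rala and Ralb by -0.02 and 0.04. Rassf5 differed by 0.28 with a standard error of 0.41, and by -0.09 without saline replicate 2. Rassf1, a Ras association domain protein named after its values were seen, was higher on all LPS arrays by 0.31 with a standard error of 0.18 and an adjusted p of 0.481 in limma.

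Downstream of Raf, the fitted differences of the MEK kinases had opposite signs, and neither passed a test. Map2k2 (MEK2) read 2.39, 2.50 and 2.52 on LPS replicates 1, 2 and 3 and 2.73, 2.81 and 2.72 on saline replicates 1, 2 and 3, so that all LPS arrays lay lower, with a difference of -0.29, a standard error of 0.15 and an adjusted p of 0.424 in limma. Map2k1 (MEK1) differed by 0.12 with a standard error of 0.18, and the ERK kinase Mapk3 by -0.15. Dusp6, a phosphatase induced by ERK that switches it off, read -0.45, 0.65 and 0.61 on saline and -0.08, -0.39 and -0.43 on LPS replicates 1, 2 and 3. Its saline values were high on replicates 2 and 3, the arrays with adrenal transcripts, and saline replicate 1 lay below all LPS arrays. The difference was -0.57 with a standard error of 0.33 and an adjusted p of 0.481 in limma, and it turned to 0.15 without saline replicates 2 and 3. Mapk3 was -0.74 without them, while Map2k2 was -0.27. The feedback inhibitors Spry2 and Spry4 differed by 0.15 and 0.04 and the transcription factor Etv5 by -0.06, and no probe was matched to Spry1. Of the 13 feedback inhibitors and targets measured, 5 were fitted higher and 8 lower, and Spred2, named after its values were seen, had an unadjusted p in limma under the threshold while well above background on 0 arrays.

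**Figure D5:**
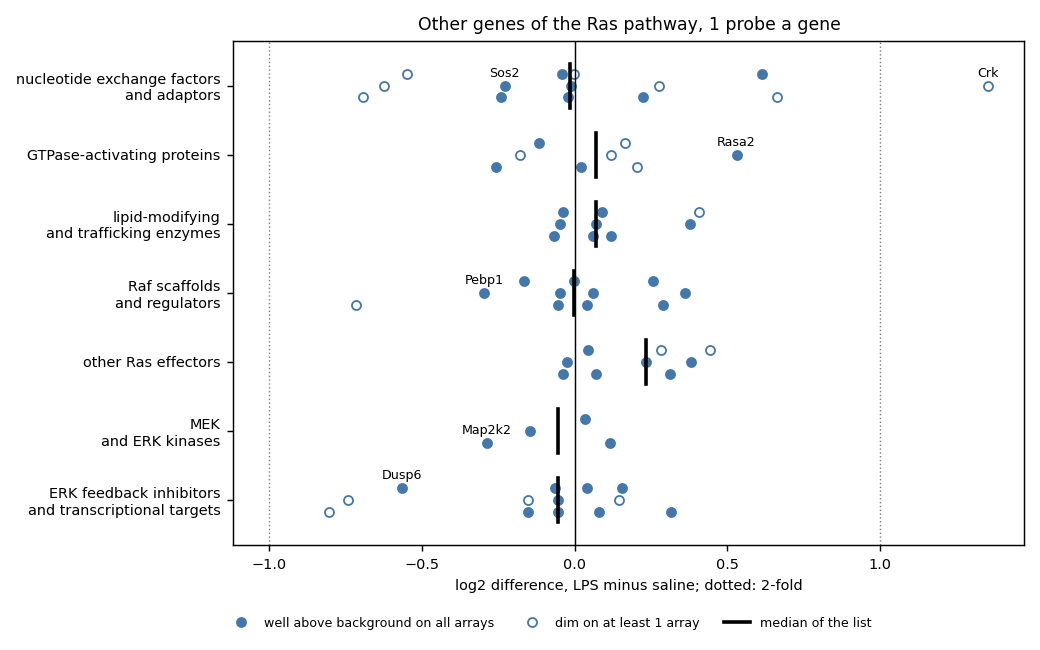
Fitted log2 difference, LPS minus saline, on the x axis for the 68 measured genes of the Ras pathway, grouped by role along the y axis, with filled points for genes well above background on all arrays, open points for dimmer ones, a bar at each list's median and dotted lines at a 2-fold difference. Crk, a dim gene, is the 1 point beyond 2-fold, and list medians lie between -0.06 and 0.23.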

How the data were processed

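The authors deposited the spot intensity values of each array from Agilent Feature Extraction 10.5.1.1, with background already subtracted in the processed signal, and a table of the whole study whose intensities are those values, equal within 0.497%. The submitters' processing notes name lumi without a role. Ratios, log2 values and tests were computed here. Spots flagged as non-uniform or population outliers were removed, spots of a probe were averaged on the log2 scale, and each array's 75th percentile over probes was subtracted. In R 4.3.3, lmFit and eBayes of limma 3.58.1 were fitted to 30367 probes with at least 2 unflagged arrays in each group, with Benjamini-Hochberg adjustment over all of them, and the procedure was tested on simulated data. A probe counted as well above background on an array where all its unflagged spots were so marked. The fold criterion, 2-fold with p under 0.05, is the one the study's methods state, with analysis of variance named there for the data in general and no array test or normalization, and was applied here to unadjusted p-values.

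Symbols came from each probe's RefSeq accession through a table of assembly GRCr8, used for names, and gave 17998 probes a symbol. It also gave the promoter windows, whereas probe positions and protein sequences were not used here. A pathway gene with more than 1 probe was represented by its brightest. Named genes were all probes of the members, a subset of each pathway list, and any pathway gene past the criterion whose probe was well above background throughout a treatment. The members, lists and tests were chosen with earlier results of these data known. Signal strength and the number of arrays limit the precision, with the 75th percentile of the processed signal between 2824 and 6754 and 66.3% to 76.0% of spots well above background. Deviations from the group means correlated between arrays of the same replicate number, at 0.298, 0.215 and 0.254 across probes for numbers 1, 2 and 3. Arrays of different numbers correlated from -0.271 to 0.160. A pairing by number would rest on these correlations alone. The main fit and the permutation tests are unpaired, and the replicate block is an alternative. The 18 alternatives covered background correction, normalization, the authors' table, flagged and dim spots, the methods' t-test, a trended robust fit, slide row, the replicate block, each array left out, and saline replicates 2 and 3 left out. The PCR, protein and histology measurements were not analysed here. The value of 1 pathway gene is not reported here.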

Additional observations from a re-analysis of the deposited data

How the results depend on the processing

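Over the 18 alternatives, 178 fitted differences of member probes were computed. Of these, 159 kept their direction and their side of the 2-fold criterion, 17 changed sign and 2 newly passed it, both for the dim Rras2 probe, at 1.15 with no scaling and at 1.03 without saline replicate 1. Members passing the criterion numbered 1 with no scaling between arrays and 0 to 1 with an array left out. After adjustment, 0 passed under any alternative that kept more than 1 array in each treatment. Member probes fitted above 0 numbered 9 with no scaling, 2 over bright probes alone, and 3 to 5 with an array left out. Pathway genes passing the criterion numbered 2 with no scaling (Crk and Ptpn11), with the slide row as a block (Crk and Dusp4) and without saline replicates 2 and 3 (Crk and Spred2), 0 with normexp, with no background correction and over bright probes alone, and 1 to 2 with an array left out, Etv1 being added without saline replicate 1. These additional genes were named after their values were seen, and Spred2 was well above background on 0 arrays. Without saline replicates 2 and 3 only 1 saline array remained, which was assumed to vary like the LPS arrays. The replicate block gave 0 members called, 4 fitted above 0 and 1 pathway gene called, as without it, with 628 of all probes called against 513, and it changed no call of a member.

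Signs turned as follows. Hras, too dim for a direction, was -0.028 with quantile normalization, -0.18 with normexp, -0.14 with no background correction, -0.34 without saline replicates 2 and 3, and -0.19 to 0.33 with an array left out. Nras was 0.10 with no scaling and -0.47 to 0.038 with an array left out. Rras was -0.23 without saline replicates 2 and 3 and -0.11 to 0.25 with an array left out. With no scaling, Araf probes A_64_P109880, A_64_P150699, A_64_P150691 and A_64_P150696 were 0.12, 0.32, 0.22 and 0.28. Without saline replicates 2 and 3, A_64_P150699 was 0.054 and A_64_P150691 0.10, and with an array left out A_64_P150699 ranged from -0.12 to 0.014 and A_64_P150696 from -0.21 to 0.016. The shift with no scaling follows from its construction, as the median of all probes moved to 0.34, and the cause of the other changes was not tested.

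Over all probes, 513 were called in the main setting, 1230 with no scaling, 291 with quantile normalization, 282 with normexp, 211 with no background correction, 182 over bright probes alone, 148 by the methods' t-test, 1555 with the slide row as a block and 250 to 1131 with an array left out. Without saline replicate 1, 290 of all probes passed after adjustment in limma, none of them a member. The saline arrays then left, replicates 2 and 3, were those with adrenal transcripts. Calls higher with LPS were 186 of 513, but 1003 of 1230 with no scaling, 2 of 282 with normexp, 0 of 211 with no background correction, 10 of 182 over bright probes alone, 1489 of 1555 with the slide row as a block and 100 of 148 by the methods' t-test. With the slide row as a block 5 of all probes passed after adjustment, in a fit whose difference rests on LPS replicate 1 alone against the saline arrays. Signal over background limits Hras and the dim Rras2 probe, which were at -0.14 and 0.10 with no background correction.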
